A study of Mus musculus with 48 samples.

Results

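The 8 transcription factors of the osteoblast lineage described here, Runx2, Sp7 (osterix), Twist1, Atf4, Msx2 and the Dlx family members Dlx3, Dlx5 and Dlx6, were taken by gene symbol from a table of read counts, where all 8 had a row among 32544 gene rows. Collagen type I alpha 1 (Col1a1) was followed beside them as a measure of bone content. The libraries were RNA-seq of the tibial metaphysis, the flared end of the shaft beside the growth plate, from 8 inbred mouse strains, all male and 19 weeks old. The classical strains were C57BL/6J, 129S1/SvImJ, A/J, NOD/ShiLtJ and NZO/HlLtJ, and the wild-derived strains were CAST/EiJ, PWK/PhJ and WSB/EiJ. The immobilized samples came from left hindlimbs that spent 3 weeks in a cast, while the control samples came from the free right limbs of the same mice. Each strain contributed 3 mice and so 3 immobilized and 3 control libraries, 48 in all. Both limbs of a mouse thus came from an animal that wore a cast, and a difference between limbs cannot be told apart from a difference between left and right.

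Of the 48 libraries, 2 A/J control libraries (replicates 2 and 5) were nearly empty, with 50 and 2335 counts, and were dropped. The 46 others held 5253408 to 14744056 counts per library (median 7593532). They comprised 24 immobilized and 22 control libraries, of which 44 were the limb pairs of 22 mice. A/J was therefore represented by 1 pair, mouse 1, whose control library stood apart from the other control libraries with the highest Col1a1 level of all 22. Average limb effects include this pair unless said otherwise. NZO/HlLtJ control replicate 4 also stood apart, with the lowest erythroid sum (676 CPM, next lowest control library 19285 CPM) and neutrophil sum (3294 CPM, next 7163 CPM) of the control libraries.

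Runx2, a Runt-domain factor, and Sp7, a zinc-finger factor that acts downstream of it, are each required for osteoblasts to form in mice. The homeodomain factors Dlx3, Dlx5, Dlx6 and Msx2 are regulated by bone morphogenetic protein (BMP) signals and act on Runx2 and on bone matrix genes, with Msx2 often opposing the Dlx factors at shared sites. Atf4, a leucine-zipper factor governed largely through its translation and protein stability, serves amino acid supply and collagen synthesis, and Twist1, a basic helix-loop-helix factor of mesenchymal progenitors, binds the Runt domain of Runx2 and restrains it. Col1a1 encodes the major chain of type I collagen, the main protein of bone matrix, which other mesenchymal cells make as well.

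In the GRCm38 annotation (GENCODE M21), Runx2 lies on chromosome 17 at 44495987-44814797, minus strand, and Sp7 on chromosome 15 at 102356606-102367182, minus strand. Dlx5 (chromosome 6, 6877805-6882085, minus strand) and Dlx6 (6863334-6868568, plus strand) are neighbours transcribed toward each other, and Dlx3 lies on chromosome 11 at 95120119-95125296, plus strand. Msx2 lies on chromosome 13 at 53466884-53473074, minus strand, Atf4 on chromosome 15 at 80255184-80257541, plus strand, and Twist1 on chromosome 12 at 33957671-33959829, plus strand. Exons of Runx2 share 519 bases with the antisense gene Runx2os1, and exons of Dlx6 share 104 bases with Dlx6os2. Neither antisense gene had a row in the table and the strand setting of the counting is not given in the sources used here, so reads from those stretches cannot be told apart.

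RefSeq promoter sequence (GRCm38.p6) was matched for Runx2, Twist1, Msx2 and Atf4, 4 of the 8 members. The 250 bases before each start are shown, 5′ to 3′ on the strand of the gene, because several of these factors act on each other's genes through known core motifs. Capitals mark the Runx core ACCACA or its complement TGTGGT and the homeodomain core TAATTA, which reads the same on both strands; both strands were searched and no matches overlapped. The coordinates are chr17:44814628-44814877 (minus) for Runx2, chr12:33957421-33957670 (plus) for Twist1, chr13:53472781-53473030 (minus) for Msx2 and chr15:80254934-80255183 (plus) for Atf4. The starts are those of RefSeq, which for Runx2 and Msx2 differ from the GENCODE annotation. The Runx2 window reaches into the GENCODE gene, which begins at 44814797, and the Msx2 window lies wholly inside its gene, which begins at 53473074. Both marked cores fall within those GENCODE gene spans.
Runx2: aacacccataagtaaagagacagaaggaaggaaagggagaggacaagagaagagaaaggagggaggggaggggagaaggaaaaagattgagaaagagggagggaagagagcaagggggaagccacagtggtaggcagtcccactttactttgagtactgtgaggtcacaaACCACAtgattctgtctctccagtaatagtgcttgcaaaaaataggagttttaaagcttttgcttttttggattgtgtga
Twist1: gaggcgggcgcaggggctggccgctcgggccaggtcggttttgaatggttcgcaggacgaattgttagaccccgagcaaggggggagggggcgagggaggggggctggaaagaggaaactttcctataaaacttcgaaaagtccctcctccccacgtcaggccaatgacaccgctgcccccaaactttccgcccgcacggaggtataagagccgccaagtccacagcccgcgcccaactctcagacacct
Msx2: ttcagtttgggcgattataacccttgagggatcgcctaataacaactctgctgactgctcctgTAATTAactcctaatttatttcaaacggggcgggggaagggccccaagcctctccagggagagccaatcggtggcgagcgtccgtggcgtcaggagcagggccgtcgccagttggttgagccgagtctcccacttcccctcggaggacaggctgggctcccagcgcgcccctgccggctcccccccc
Atf4: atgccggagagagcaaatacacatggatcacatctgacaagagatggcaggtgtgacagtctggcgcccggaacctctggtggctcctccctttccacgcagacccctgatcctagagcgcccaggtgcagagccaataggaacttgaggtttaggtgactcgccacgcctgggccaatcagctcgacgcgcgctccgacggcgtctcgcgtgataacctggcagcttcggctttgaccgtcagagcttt
The Runx2 window held 1 Runx core, whose first base lay 80 bases before the RefSeq start, and 14% of 32851 RefSeq mouse promoter windows of the same length held at least 1. The Msx2 window held 1 homeodomain core, 187 bases before the RefSeq start, against 4.84% of all windows. Neither motif's letters were found in the Twist1 and Atf4 windows. GC content was 44.8% in the Runx2 window, against 59.2% to 62.4% in the other 3. A match describes the letters and does not show binding.

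The members spanned a wide range of abundance. On a scale of read counts scaled to library size (CPM) and divided by annotated exon length (CPM per kb), which allows genes to be compared, the median level over the 46 libraries was highest for Atf4 (84.1 CPM per kb), followed by Sp7 (24.5 CPM per kb) and Runx2 (9.17 CPM per kb). Dlx5 (6.38 CPM per kb), Twist1 (6.24 CPM per kb) and Dlx3 (6.21 CPM per kb) lay together below Runx2, and Dlx6 stood at 3.02 CPM per kb. Col1a1 had a median of 1543 CPM per kb. Msx2 was close to the limit of detection, with 0 to 8 counts per library and none at all in 9 of 46 libraries. Its mean level was 0.33 ± 0.44 CPM in immobilized limbs (SD, n = 24), against 0.23 ± 0.26 CPM in control limbs (SD, n = 22). With no count of Msx2 in either library of the A/J pair, its average limb effect could not be estimated, and limb effects are given for the other 7 members.

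Variation between libraries differed as much as level. The ratio of the highest to the lowest library was 2.20-fold for Atf4 and 3.33-fold for Runx2, the 2 steadiest members on the CPM scale. The ratio was 9.21-fold for Dlx6, 9.30-fold for Dlx5, 15.5-fold for Sp7, 28.3-fold for Twist1 and 37.6-fold for Dlx3. Col1a1 varied 71.6-fold, more than any of these 7 members. The plot of levels by library shows these spreads.

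**Figure D1:**
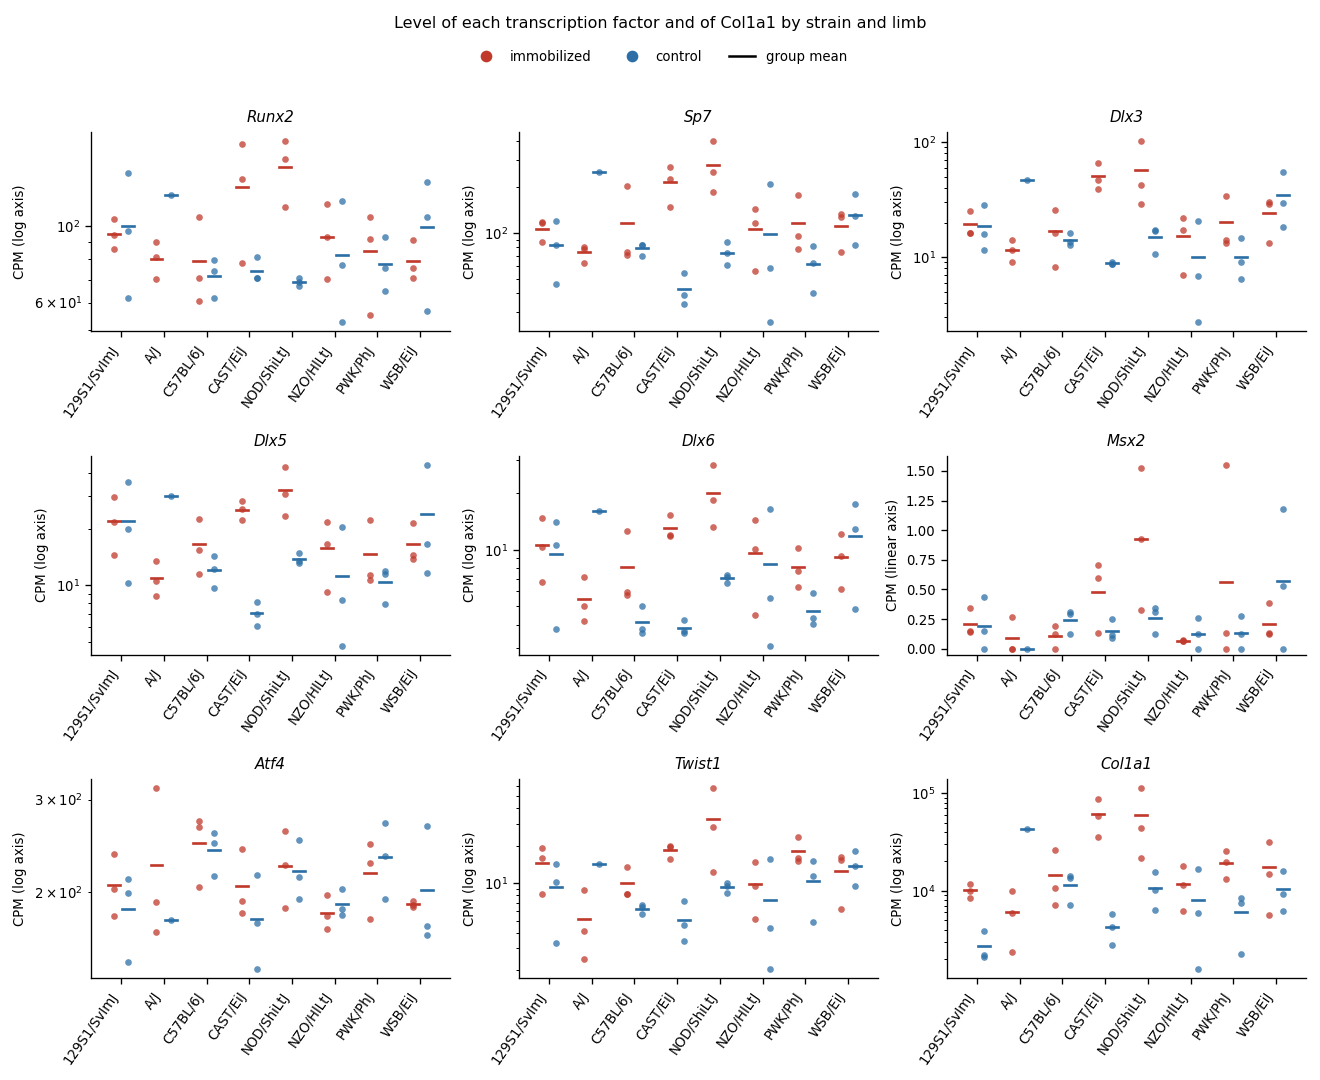
Level of each member and of Col1a1 in each library, in CPM, counts scaled to library size (log axis except for Msx2, which has libraries at 0), by strain, with immobilized limbs to the left of control limbs. Each point is 1 library and each bar the group mean. In CAST/EiJ and NOD/ShiLtJ the immobilized points of Sp7, the 3 Dlx genes, Twist1 and Col1a1 stand above the control points, while Atf4 stays between 143 and 316 CPM in all libraries.

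Averaged over the 8 strains, Sp7, Dlx6 and Twist1 rose in immobilized limbs, by 1.42- to 1.48-fold, and no member fell. These 3 sit at different points of the lineage: Sp7 commits cells to the osteoblast fate, Dlx6 is a BMP-regulated homeodomain factor, and Twist1 holds Runx2 in check. Col1a1 rose by 2.11-fold, more than any member. In bulk tissue, a change in the number of osteoblasts and a change in RNA per osteoblast cannot be told apart.

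Sp7 ranged between 56.1 and 398 CPM (median 117 CPM) in 24 immobilized limbs, against 25.7 to 251 CPM (median 77.9 CPM) in 22 control limbs. Its log2 limb effect was 0.56 ± 0.16 (SE) with an edgeR FDR of 0.0376, with 14 of 22 mice higher on the immobilized side. Twist1 averaged 15.2 ± 11.1 CPM in immobilized limbs (SD, n = 24) and 9.03 ± 4.62 CPM in control limbs (SD, n = 22). With a log2 effect of 0.56 ± 0.16 (FDR 0.0438), Twist1 was higher in 18 of 22 mice. Dlx6, the least abundant of the Dlx genes, averaged 10.5 ± 5.4 CPM in immobilized limbs (SD, n = 24) and 7.48 ± 4.82 CPM in control limbs (SD, n = 22). Its log2 effect was 0.50 ± 0.14 (FDR 0.0342), with 16 of 22 mice higher. The log2 effects here and below come from the model of the 44 paired libraries, with equal weight per strain, and are not ratios of these pooled means. The ranges of both limbs overlapped widely for all 3 genes when the strains were pooled.

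The other 4 members did not pass the test, although their estimates were above 0. Dlx3 averaged 27.0 ± 21.3 CPM in immobilized limbs (SD, n = 24) and 17.3 ± 12.8 CPM in control limbs (SD, n = 22), with a log2 effect of 0.43 ± 0.19 (FDR 0.178). Dlx5 averaged 19.3 ± 8.3 CPM in immobilized limbs (SD, n = 24) and 15.1 ± 9.9 CPM in control limbs (SD, n = 22), with a log2 effect of 0.35 ± 0.13 (FDR 0.102). Runx2, the factor that starts the programme, had a log2 effect of 0.15 ± 0.10 (FDR 0.409), and Atf4, whose activity is set largely after transcription, one of 0.13 ± 0.07 (FDR 0.299). Runx2 averaged 98.5 ± 32.9 CPM in immobilized limbs (SD, n = 24) and 83.9 ± 25.5 CPM in control limbs (SD, n = 22), and Atf4 213 ± 38 CPM in immobilized limbs and 206 ± 37 CPM in control limbs. Both were higher in 12 of 22 mice.

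Of the 16882 genes tested, 4.58% rose and 2.86% fell in this comparison (7.43% in all, edgeR quasi-likelihood test, Benjamini-Hochberg FDR 0.05), so that 3 of the 7 estimable members lay above that share. The median log2 effect of these 7 members was 0.43, against 0.0095 for all genes tested. The members were chosen with earlier results of these data known and 6 of them varied together across libraries, so these comparisons with all genes are descriptions. The A/J pair and WSB/EiJ both had negative estimates for Runx2, Sp7, Dlx3, Dlx5, Dlx6 and Twist1. Without the A/J pair, the mean over the other 7 strains called these 6 members higher. Their log2 effects were 0.88 for Sp7, 0.89 for Twist1, 0.83 for Dlx3, 0.75 for Dlx6, 0.61 for Dlx5 and 0.28 for Runx2 (FDR 0.0480 for Runx2). Col1a1 stood at 1.64, and Atf4, which did not pass, at 0.033. The share of all genes that passed in this fit is not set beside these calls. The gain in calls therefore cannot be read as particular to the members, nor can the list counts without this pair below. The 3 calls of the mean over all 8 strains did not withstand the loss of single mice. No member passed without WSB/EiJ replicate 2, PWK/PhJ replicate 3, NOD/ShiLtJ replicate 6, CAST/EiJ replicate 4, C57BL/6J replicate 4 or 129S1/SvImJ replicate 6, and 1 passed without WSB/EiJ replicate 4 or 5, PWK/PhJ replicate 4, NOD/ShiLtJ replicate 4 or CAST/EiJ replicate 3. The highest FDR in these 22 fits was 0.0638 for Sp7, 0.0607 for Dlx6 and 0.0760 for Twist1, while Col1a1 passed in all 22. Without a term per mouse, 0 members passed (FDR 0.116 for Sp7, 0.160 for Dlx6 and 0.171 for Twist1).

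Markers of other tissues moved in the same comparison. Of 20 skeletal muscle genes, 14 fell in immobilized limbs (4 to 19 when single mice were left out). The summed level of the 20 genes was 33.0 to 29524 CPM in immobilized limbs (lowest to highest), against 88.2 to 86311 CPM in control limbs. When a muscle score was added to the model, 4 members passed: Sp7, Dlx6, Twist1 and Dlx5 (Dlx5 log2 effect 0.63, FDR 0.0315). The share of all genes that passed with this score is not set beside the counts of members, here or by strain below. Of 10 osteoclast genes, 6 rose (5 to 9 when single mice were left out). Their summed level was 1767 to 9123 CPM in immobilized limbs and 1104 to 6942 CPM in control limbs. Of 10 B cell genes, 5 fell (4 to 8 when single mice were left out), with a summed level of 80.5 to 570 CPM in immobilized limbs and 114 to 757 CPM in control limbs. Of 12 cartilage genes, 0 passed with edgeR and 7 were called by DESeq2. At an unadjusted p under 0.05 there were 7, beside 3912 of all 16882 genes tested. The cartilage list had a median log2 effect of 1.51. Its summed level was 50.7 to 4044 CPM in immobilized limbs and 26.3 to 1182 CPM in control limbs, and 5 of its genes rose without the A/J pair. No gene of the muscle, osteoclast and B cell lists was at 0 in all libraries, and the part of osteoclasts, B cells and cartilage in the result was not tested.

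Strain by strain, members passed the test in CAST/EiJ, a wild-derived Mus musculus castaneus strain, and in NOD/ShiLtJ, the non-obese diabetic strain. In CAST/EiJ, Sp7, Dlx3, Dlx5, Dlx6 and Twist1 rose by log2 effects of 1.76 to 2.48, beside 3.79 ± 0.62 (SE, FDR 0.00101) for Col1a1. Col1a1 measured 35943, 87311 and 58639 CPM in immobilized limbs, against 5841, 2780 and 4238 CPM in control limbs. Of all genes tested, 8.38% rose in this strain and 13.9% changed (2339 genes, 679 without CAST/EiJ replicate 4, 821 without replicate 3 and 1016 without replicate 2).

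Sp7 measured 147, 270 and 226 CPM in the immobilized limbs of the CAST/EiJ mice, against 54.4, 39.1 and 33.9 CPM in their control limbs, a log2 effect of 2.33 ± 0.41 (FDR 0.00181). Dlx3, which acts on matrix genes in later osteoblasts, measured 39.1, 66 and 46.9 CPM in immobilized limbs, against 9.14, 8.72 and 8.77 CPM in control limbs. Its effect of 2.48 ± 0.48 (FDR 0.0033) was the highest of the members in this strain. Dlx5, a BMP-induced activator of Runx2 and Sp7, measured 22.4, 28.1 and 25.5 CPM in immobilized limbs, against 7.06, 8.17 and 6.07 CPM in control limbs. Its neighbour Dlx6 measured 11.9, 11.9 and 15.4 CPM in immobilized limbs, against 3.59, 4.22 and 3.71 CPM in control limbs. Twist1 measured 15.7, 20 and 19.6 CPM in immobilized limbs, against 7.18, 4.59 and 3.46 CPM in control limbs. For each of these 5 genes every immobilized limb of CAST/EiJ stood above every control limb.

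The log2 effects were 1.84 ± 0.32 for Dlx5 (FDR 0.00167), 1.76 ± 0.35 for Dlx6 (FDR 0.00374) and 1.91 ± 0.41 for Twist1 (FDR 0.00583). Runx2 measured 78.2, 173 and 137 CPM in immobilized limbs, against 70.6, 81.0 and 70.8 CPM in control limbs, so that 1 immobilized limb lay within the control range. Its log2 effect of 0.73 ± 0.25 did not pass (FDR 0.0571), nor did that of Atf4, 0.22. The count of 5 members ranged between 4 and 6 when single mice were left out, Twist1 being lost without CAST/EiJ replicate 3 or 4 (highest FDR 0.0720). Of the 20 skeletal muscle genes, 0 passed in this strain with edgeR (median log2 effect -0.20) and 1 was called by DESeq2. At an unadjusted p under 0.05 there was 1, beside 5016 of all 16882 genes tested. With the muscle score in the model, 6 members passed. Of the 10 B cell genes, 4 passed, and their part in the result was not tested.

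In NOD/ShiLtJ, Runx2, Sp7, Dlx3, Dlx5, Dlx6 and Twist1 rose, with Col1a1 at 2.26 ± 0.58 (SE, FDR 0.0255); 5.55% of all genes rose and 8.33% changed in this strain. Runx2 measured 156, 114 and 175 CPM in immobilized limbs, against 68.6, 67.2 and 70.9 CPM in control limbs, a log2 effect of 1.08 ± 0.25 (FDR 0.0158). Sp7 measured 250, 186 and 398 CPM in immobilized limbs, against 61.3, 73.9 and 86.8 CPM in control limbs, a log2 effect of 1.85 ± 0.40 (FDR 0.0117). For both of these lineage-defining factors the control limbs lay close together and the immobilized limbs spread out above them.

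Dlx3 measured 42.3, 28.9 and 102 CPM in immobilized limbs of NOD/ShiLtJ, against 10.7, 16.8 and 17.3 CPM in control limbs (log2 effect 1.79 ± 0.48, FDR 0.0305). Dlx5 measured 31.0, 23.5 and 42.9 CPM in immobilized limbs, against 15.0, 13.2 and 13.5 CPM in control limbs (1.19 ± 0.32, FDR 0.0292). Dlx6 measured 18.4, 13.2 and 28.4 CPM in immobilized limbs, against 7.32, 6.62 and 7.19 CPM in control limbs (1.45 ± 0.34, FDR 0.0173). Across the 3 Dlx genes, replicate 6 was the highest immobilized limb and replicate 5 the lowest. Twist1 followed the same order, with 28.5, 12.3 and 58.2 CPM in immobilized limbs, against 10.1, 8.27 and 9.45 CPM in control limbs (1.59 ± 0.40, FDR 0.0241). Atf4 measured 225, 186 and 261 CPM in immobilized limbs, against 252, 214 and 194 CPM in control limbs (0.02), the limbs overlapping. The calls rested on the 2 stronger responders: without NOD/ShiLtJ replicate 4 or replicate 6, 0 members passed in this strain, whereas 6 passed in each of the other 20 fits. Of all genes, 0 passed without replicate 4 and 2 without replicate 6, against 1407 with all 3 mice. Of the 20 skeletal muscle genes, 1 fell in this strain, with a median log2 effect of -2.97, and 6 members passed with the muscle score in the model as well. Of the 10 osteoclast genes, 6 passed in this strain, and their part in the result was not tested.

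No member passed in the other 6 strains with edgeR; the shares of all genes that passed were 3.99% in A/J, 0.0889% in PWK/PhJ, 0.0% in 129S1/SvImJ, and 0.00592% in each of WSB/EiJ, NZO/HlLtJ and C57BL/6J. By unadjusted p under 0.05 there were 5 members in A/J, 2 in PWK/PhJ, 1 in C57BL/6J and 0 in the other 3 strains. At the same cut-off there were 4232, 2066 and 823 of all 16882 genes tested in A/J, PWK/PhJ and C57BL/6J. DESeq2 called 1 member in A/J and 0 in the other 5 strains. In 129S1/SvImJ, 767 genes had an unadjusted p under 0.05 and DESeq2 called 5. In C57BL/6J and PWK/PhJ, Dlx6 and Twist1 were higher in each immobilized limb than in any control limb, without passing the test. Dlx6 measured 5.96, 12.7 and 5.77 CPM in immobilized limbs of C57BL/6J, against 3.6, 5.04 and 3.8 CPM in control limbs. In PWK/PhJ the same gene measured 10.3, 6.33 and 7.75 CPM in immobilized limbs, against 4.04, 5.87 and 4.33 CPM in control limbs. PWK/PhJ had log2 effects of 0.88 for Sp7, 0.95 for Dlx3, 0.89 for Twist1 and 1.84 for Col1a1 (FDR 0.203 for Col1a1).

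In 129S1/SvImJ, Col1a1 separated the limbs while the members did not. Col1a1 measured 8470, 11836 and 9975 CPM in immobilized limbs, against 2213, 2118 and 3839 CPM in control limbs. Its log2 effect there was 1.93, against -0.00 for Runx2, 0.45 for Sp7 and 0.75 for Twist1, none of them past the test. Runx2 measured 105, 94 and 85.6 CPM in immobilized limbs of this strain, against 96.4, 142 and 61.8 CPM in control limbs. WSB/EiJ gave negative estimates for Runx2 (-0.25), Sp7 (-0.21), Dlx3 (-0.46), Dlx5 (-0.35), Dlx6 (-0.25) and Twist1 (-0.20) beside 0.53 for Col1a1. Sp7, for which all 3 WSB/EiJ mice were lower, measured 74.2, 127 and 133 CPM in immobilized limbs, against 82.7, 129 and 181 CPM in control limbs.

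The A/J pair ran in the opposite direction to CAST/EiJ and NOD/ShiLtJ. Its immobilized limb had 78.6 CPM of Sp7, against 251 CPM in the control limb, and 9.04 CPM of Dlx3, against 46.6 CPM. Runx2 stood at 70.4 CPM in the immobilized limb, against 123 CPM in the control limb, and Col1a1 at 5905 CPM, against 42740 CPM. Only Atf4 was higher, with 316 CPM in the immobilized limb, against 177 CPM in the control limb. None of these differences passed (log2 effect of Sp7 -1.68 ± 0.68, of Dlx3 -2.36 ± 0.85), and the strain has no replicate of its own. The immobilized limbs of A/J mice 2 and 5, which have no usable control, had 80.8 and 63.3 CPM of Sp7, close to mouse 1. Their Atf4 levels, 168 and 192 CPM, lay well below the 316 CPM of mouse 1 and on either side of its control limb. In NZO/HlLtJ, 1 control library (replicate 5) was the lowest of all 46 for Runx2 (52.6 CPM), Sp7 (25.7 CPM), Dlx3 (2.7 CPM), Dlx5 (4.76 CPM), Dlx6 (3.09 CPM), Twist1 (2.06 CPM) and Col1a1 (1586 CPM).

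**Figure D2:**
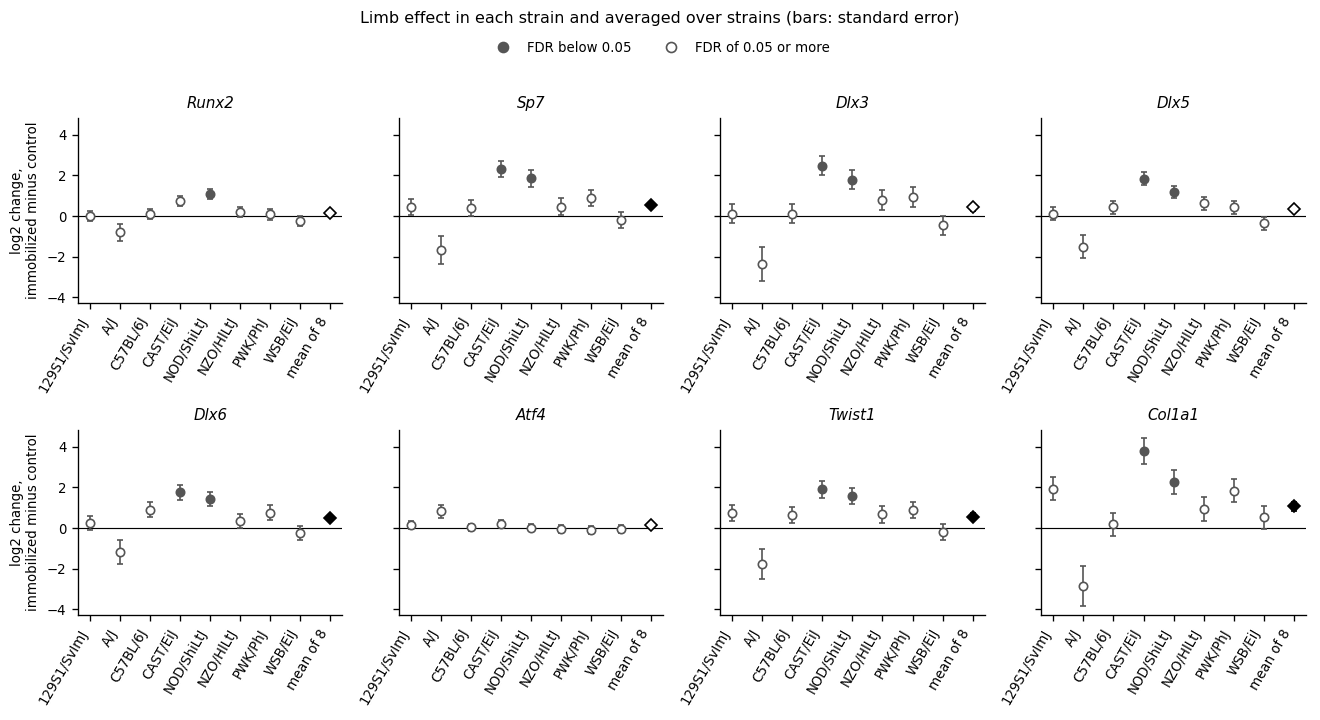
Log2 limb effect (immobilized minus control) of each member and Col1a1 in each strain and averaged over the 8 strains, with the standard error as bars and filled points for those that passed an edgeR FDR of 0.05. In CAST/EiJ 5 members and in NOD/ShiLtJ 6 members passed, and in A/J, with 1 mouse, 6 of the 7 members drawn lie below 0.

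Whether the limb effect differed among strains was tested directly, and Sp7 (FDR 0.0452), Dlx3 (FDR 0.0480) and Dlx5 (FDR 0.0441) passed, as did Col1a1 (FDR 0.0434). The background share of genes that passed was 2.5%. Dlx6 (FDR 0.0738), Twist1 (FDR 0.103), Runx2 (FDR 0.130) and Atf4 (FDR 0.579) did not pass. This test leaned on single mice: 0 members passed without the A/J pair, and also 0 without any 1 of 12 others (129S1/SvImJ 6; C57BL/6J 1 or 6; CAST/EiJ 3 or 4; NOD/ShiLtJ 4 or 6; NZO/HlLtJ 6; PWK/PhJ 3 or 4; WSB/EiJ 4 or 5), while 1 passed without 129S1/SvImJ 2, C57BL/6J 4, CAST/EiJ 2 or WSB/EiJ 2 and 5 passed without NZO/HlLtJ 5. Without a term per mouse, 0 members passed. The number of all genes called also varied widely between these fits, as given below, so a loss of calls need not be particular to the members.

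Strain differences were also examined within each limb. In control limbs, Dlx3 was the one member that differed over the 8 strains (FDR 0.0226; Col1a1 FDR 0.0198), in a comparison where 40.6% of genes passed. Its control level was highest in the single A/J library (46.6 CPM) and in WSB/EiJ (34.4 CPM on average) and lowest in CAST/EiJ (8.88 CPM on average). Dlx5 (FDR 0.0597), Dlx6 (FDR 0.0695), Sp7 (FDR 0.0742), Twist1 (FDR 0.375), Atf4 (FDR 0.393) and Runx2 (FDR 0.410) did not pass. Compared 1 strain at a time with the other 7, no member passed in control limbs with all libraries (6 calls without the control library of NZO/HlLtJ replicate 4, 5 without that of replicate 5, 3 without WSB/EiJ replicate 2, 2 without 129S1/SvImJ replicate 6 and 1 without each of 4 others), where the share of genes passing was 22.7% for CAST/EiJ, 16.7% for PWK/PhJ, 10.8% for NOD/ShiLtJ, 8.83% for C57BL/6J, 6.54% for WSB/EiJ, 6.49% for 129S1/SvImJ, 4.61% for NZO/HlLtJ and 1.69% for A/J. In the test over all strains, the number of members called was 0 without the control library of WSB/EiJ replicate 5, 3 without that of 129S1/SvImJ replicate 6 or of WSB/EiJ replicate 2, and 4 or 5 without that of NZO/HlLtJ replicate 5 or replicate 4.

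In immobilized limbs, 6 members differed over the strains, in a comparison where 50.3% of genes passed. These were Dlx3 (FDR 0.00375), Sp7 (FDR 0.00781), Twist1 (FDR 0.0100), Dlx5 (FDR 0.0169), Dlx6 (FDR 0.0206) and Runx2 (FDR 0.0357), while Atf4 did not pass (FDR 0.536). NOD/ShiLtJ was highest and CAST/EiJ next for all 6. NOD/ShiLtJ stood above the mean of the other 7 strains for all 6, with log2 differences of 1.5 ± 0.33 (SE) for Dlx3, 1.49 for Twist1, 1.27 for Sp7, 1.17 for Dlx6, 0.94 for Dlx5 and 0.72 for Runx2 (12.7% of genes higher). CAST/EiJ stood above the others for Dlx3 (1.31 ± 0.34, FDR 0.00836) and Sp7 (0.86 ± 0.29, FDR 0.0415; 11.1% of genes higher), and A/J below the others for Twist1 (-1.56 ± 0.45, FDR 0.0251; 4.46% of genes lower). Of all genes, 19.6% passed for NOD/ShiLtJ, 18.6% for CAST/EiJ and 13.7% for A/J, and no member passed for PWK/PhJ (18.7%), 129S1/SvImJ (9.9%), WSB/EiJ (8.05%), C57BL/6J (7.75%) or NZO/HlLtJ (6.81%). All 6 NOD/ShiLtJ calls were lost without its immobilized replicate 6, and with Col1a1 as a covariate 1 member differed over the strains.

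Neighbours in the order of strains were seldom distinct. CAST/EiJ, second of the immobilized limbs, was last of the control limbs for Sp7, Dlx3, Dlx5, Dlx6 and Twist1. For Dlx3 the CAST/EiJ immobilized limbs (39.1 to 66 CPM) stood clear of those of WSB/EiJ, the next strain (13.2 to 30.0 CPM); all other neighbours among immobilized limbs overlapped for all 8 members. Among control limbs, neighbouring strains were apart for Sp7 between A/J, which has 1 control library, and WSB/EiJ. They were also apart for Dlx6 between NOD/ShiLtJ and PWK/PhJ, and all other neighbours overlapped. Atf4 showed no pair of neighbouring strains apart in either limb; its strain means lay between 183 and 248 CPM in immobilized limbs and between 177 and 240 CPM in control limbs.

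The signed change of each member lay below that of Col1a1 in most mice, which includes mice where both moved in opposite directions. Col1a1 was higher on the immobilized side in 18 of 22 mice, with changes of -2.86 to 4.97 on the scale of log2 CPM (prior count 2). The change of Runx2 lay below that of Col1a1 in 19 of 22 mice, that of Sp7 in 16 and that of Twist1 in 16. Per mouse, Sp7 changed by -1.67 to 2.78, Dlx3 by -2.33 to 2.89 and Twist1 by -1.71 to 2.59, whereas Runx2 changed by -0.80 to 1.3 and Atf4 by -0.51 to 0.83. Twist1 and Dlx3 moved in the same direction as Col1a1 in 18 of 22 mice, Sp7 in 16, Dlx5 in 15, Runx2 and Dlx6 in 14 and Atf4 in 12. Among the 18 mice with higher Col1a1, 12 had 6 or all 7 of the members with an estimate higher as well, and among the 4 mice with lower Col1a1, 0 had.

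**Figure D3:**
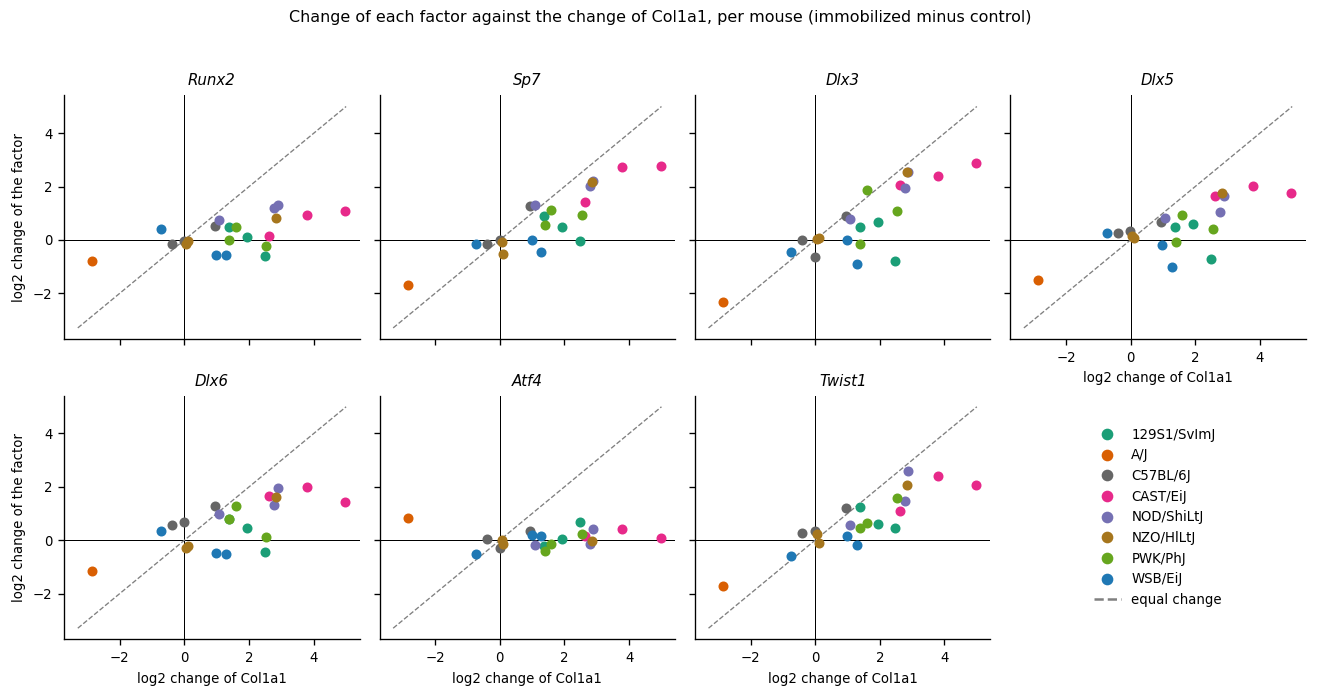
Log2 change (immobilized minus control) of each member against that of Col1a1 in the same mouse, 22 mice, coloured by strain, with the line of equal change. Most points of Runx2 and Atf4 lie in a flat band near 0, whereas Sp7, Dlx3 and Twist1 spread upward with Col1a1, below the line of equal change in 16 to 18 of 22 mice.

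In some mice Col1a1 and the factors parted. In 129S1/SvImJ mouse 3, Col1a1 was higher by 2.48 in the immobilized limb while the median of Runx2, Sp7, Dlx3, Dlx5, Dlx6 and Twist1 was -0.52. WSB/EiJ mouse 5 had a Col1a1 change of 1.28 and a median of -0.54 for the same 6 genes; its control library had the highest osteocyte sum of all (7914 CPM, next 3122 CPM) and the highest adipocyte sum, whose part was not tested. In NZO/HlLtJ mouse 5 both were up, with 2.84 for Col1a1 and a median of 1.92, while mice 4 and 6 of that strain stayed near 0 in both (0.11 and 0.06 for Col1a1, -0.06 and -0.0087 for the median). These are single mice and carry no test.

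Pooled over the strains, the median ratio of each of the 7 members other than Msx2 to Col1a1 was lower in immobilized limbs. Per 1000 Col1a1 counts, the median was 6.27 Runx2 counts in immobilized limbs, against 11.4 in control limbs. Atf4 had 14.9 counts per 1000 of Col1a1 in immobilized limbs, against 31.8 in control limbs, and Sp7 had 8.07 in immobilized limbs, against 9.64 in control limbs. For Twist1 the values were 0.827 in immobilized limbs and 0.980 in control limbs, and for Dlx3, Dlx5 and Dlx6 they were 1.19, 1.08 and 0.576 in immobilized limbs, against 1.75, 1.42 and 0.844 in control limbs. Strains differed in this. In A/J all 7 median ratios were higher in the 3 immobilized libraries than in the single control library (11.9 for Runx2, against 2.87). In C57BL/6J the medians of 6 members, all but Dlx3, were higher in immobilized limbs (7.76 for Sp7, against 6.13 in control limbs), and the mean ± SD overlapped between limbs for Sp7, at 8.26 ± 1.53 in immobilized limbs and 7.32 ± 2.21 in control limbs (n = 3 each). WSB/EiJ had higher medians in immobilized limbs for Sp7, Dlx5 and Twist1, and NZO/HlLtJ for Dlx5. These ratios compare each gene with itself between limbs, as the genes differ in length, and are given without a test.

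**Figure D4:**
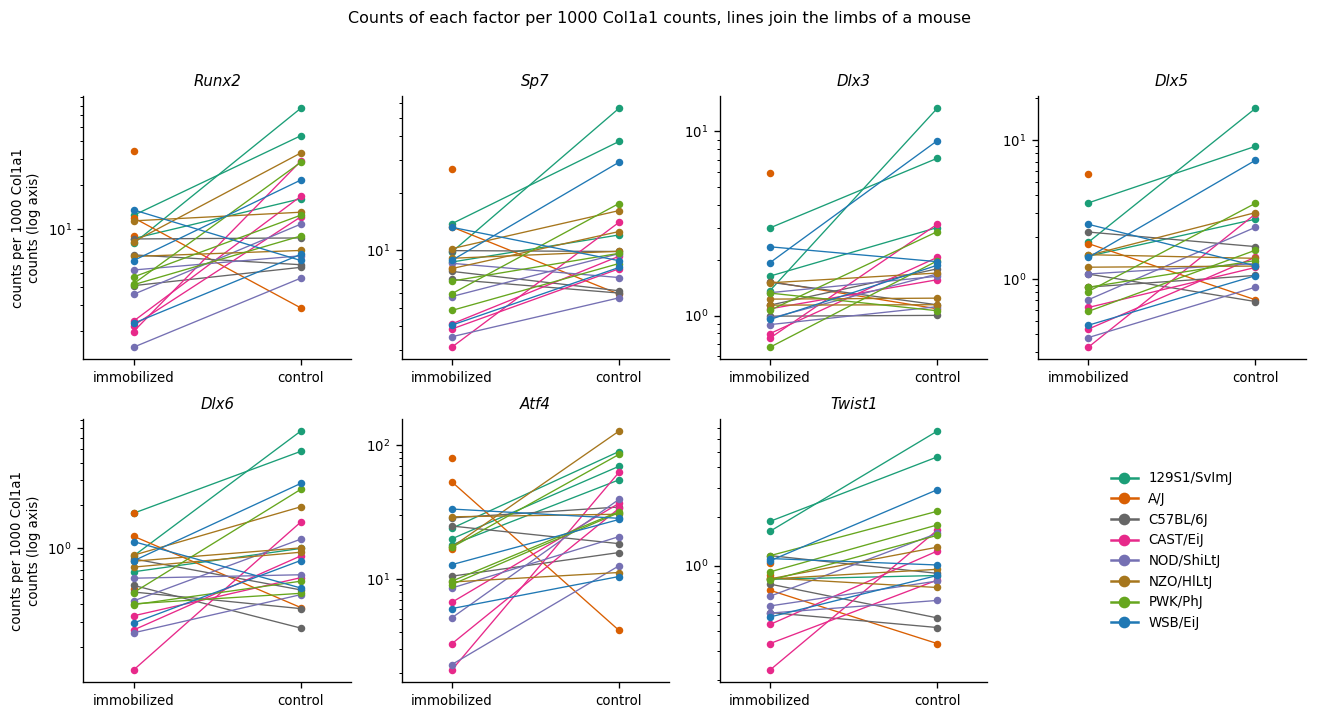
Counts of each member per 1000 Col1a1 counts in each library (log axis), coloured by strain, with immobilized limbs to the left of control limbs and lines joining the limbs of a mouse; the 2 A/J immobilized libraries without a usable control stand as single points. For Runx2 and Atf4 most lines rise toward the control limb, with medians of 6.27 and 14.9 in immobilized limbs, against 11.4 and 31.8 in control limbs.

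A model with log2 CPM of Col1a1 as a term, beside those for mouse and strain limb effect, asked which members followed Col1a1 from mouse to mouse within strains. The slopes were 0.58 ± 0.13 for Twist1 (SE, FDR 0.0845), 0.52 ± 0.13 for Sp7 (FDR 0.208) and 0.52 ± 0.18 for Dlx3 (FDR 0.667). They were 0.16 ± 0.15 for Dlx5, 0.15 ± 0.16 for Dlx6, 0.12 ± 0.11 for Runx2 and 0.16 ± 0.08 for Atf4. No member passed, against 0.225% of all genes, and Twist1 passed in 2 of the 22 fits that left out a mouse (129S1/SvImJ 3 or 6). Without NZO/HlLtJ mouse 5 the slopes of Dlx5 (-0.0786) and Dlx6 (-0.136) turned negative.

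With the Col1a1 term held, the mean limb effect was 0.00 ± 0.18 for Sp7, -0.07 ± 0.18 for Twist1, -0.13 ± 0.25 for Dlx3, 0.01 ± 0.16 for Runx2, -0.04 ± 0.11 for Atf4, 0.18 ± 0.20 for Dlx5 and 0.34 ± 0.22 for Dlx6 (SE, on the log2 scale). None passed, in a comparison where 7 genes (0.0415%) did. A test that misses the threshold does not show that the members were equal between limbs at a given Col1a1 level. By unadjusted p under 0.05, edgeR gave 3 members for the slope (791 of 16882 genes) and 0 for this limb effect (1199 of 16882 genes). DESeq2 was not run with the Col1a1 term.

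Across the 46 libraries, 6 members varied together, with Atf4 apart from them and Msx2, with its few counts, in between. On log2 CPM, Pearson's r was 0.92 between Sp7 and Dlx3, 0.90 between the neighbours Dlx5 and Dlx6, 0.89 between Sp7 and each of Dlx5 and Dlx6, and 0.83 between Runx2 and Sp7. Against Col1a1, r was 0.83 for Sp7, 0.76 for both Dlx3 and Twist1, 0.62 for Dlx6 and 0.56 for both Dlx5 and Runx2. Atf4 had r of -0.24 to 0.12 with the other 7 members and 0.18 with Col1a1, whereas Msx2 had 0.38 to 0.52 with the 6 and 0.37 with Col1a1. These libraries share mice, strains and the CPM scale, and the values are descriptions.

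The genes most like each member over the 46 libraries were ranked by the same r among 16911 others. Plcd1 (0.969), Unc5b (0.957) and Cdh2 (0.953) led for Sp7, and Pcsk6 (0.945), Unc5b (0.940) and Slc36a2 (0.933) for Dlx3. For Dlx5 they were Ptprk (0.918), Id3 (0.915), a BMP-responsive inhibitor of helix-loop-helix factors, and Lhfp (0.912), and for Dlx6 Smad6 (0.919), an inhibitory Smad induced by BMP, Pard6g (0.916) and Epb41l2 (0.909). Twist1 was closest to Pcolce (0.908), which enhances procollagen processing, Serpinf1 (0.907) and Efnb1 (0.901). Runx2 was closest to Ctnnb1 (0.898), which encodes beta-catenin, Fndc3b (0.896) and Epb41l2 (0.893). For Atf4 the nearest were Bud31 (0.772), Copz1 (0.746) and Mrps12 (0.741), and genes near Msx2 included Smad3 (0.646) and Slurp1 (0.631). Col1a1 itself was nearest to Col1a2, its partner chain (0.996).

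The wider network of these factors was read from lists, which were chosen with earlier results of these data known. Of 20 osteoblast genes downstream of Runx2 and Sp7, 12 rose in immobilized limbs averaged over the strains and none fell, with a median log2 effect of 0.64, against 0.0095 for all genes. The lowest p-values were those of Cthrc1, a secreted collagen triple helix protein (1.51 ± 0.23, SE), Sparc, or osteonectin (1.01 ± 0.19), the collagen genes Col5a2 (1.04 ± 0.20) and Col1a2 (1.05 ± 0.22). Mmp13, Ibsp, Spp1, Phospho1, Smpd3, Pth1r, Ifitm5 and Alpl also rose. In the 22 fits that left out a mouse, 9 to 17 rose (17 without the A/J pair, with effects of 1.85 for Cthrc1, 1.48 for Sparc, 1.51 for Col5a2 and 1.6 for Col1a2). In CAST/EiJ 16 of the 20 rose, beside 8.38% of all genes, and 10 rose without CAST/EiJ replicate 3 or 4. In NOD/ShiLtJ 14 rose, beside 5.55% of all genes, and 0 without NOD/ShiLtJ replicate 4 or 6.

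Partners and co-regulators of the factors formed a list of 30 genes, of which Dlx1 and Dlx2 were too low to test. Averaged over the strains, 0 of the other 28 passed with edgeR and 7 were called by DESeq2, and their median log2 effect was 0.07. At an unadjusted p under 0.05 there were 13, beside 3912 of all 16882 genes tested. Junb, an AP-1 component, had a log2 effect of 0.32 (FDR 0.0580), Pparg, the adipocyte regulator, -0.28 (FDR 0.0592), Foxo1 -0.22 (FDR 0.0647) and Tcf7, a Wnt effector, 0.39 (FDR 0.0682). Without the A/J pair 9 of the 28 rose, Tcf7 among them (0.71, FDR 0.000881), while Junb (0.16), Pparg (-0.096) and Foxo1 (-0.067) did not pass. By strain, 9 of the 28 rose and 1 fell in CAST/EiJ, where 1 rose without CAST/EiJ replicate 3, 2 without replicate 4 and 4 without replicate 2. In NOD/ShiLtJ 3 rose, and 0 without replicate 4 or 6, and 3 fell in A/J, whose test rests on 1 mouse and a spread taken from the other strains. Tcf7 rose in both CAST/EiJ (1.93) and NOD/ShiLtJ (1.55).

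Of 22 genes known to be activated by Atf4 in the stress and amino acid response, 2 rose: Nupr1, a stress-induced chromatin protein (0.64 ± 0.14, SE), and Eif4ebp1, a translation repressor (0.25 ± 0.06). Pycr1 (0.57, FDR 0.0571) and Psat1 (0.21, FDR 0.135), enzymes of proline and serine synthesis, did not pass, and the list's median was 0.08, and 2 of 22 compares with 4.58% of all genes. Without the A/J pair 4 rose: Pycr1 passed (0.83, FDR 0.0030), Nupr1 stood at 0.96 and Eif4ebp1 did not pass (0.15, FDR 0.0826). Of 19 genes of BMP signalling, which acts on the Dlx and Msx genes, 3 rose, namely Id2 (0.36 ± 0.06), Id1 (0.36 ± 0.10) and Smad1 (0.29 ± 0.09), and Smad6 did not pass on average (0.30, FDR 0.0777). The BMP list had a median of 0.29. In the 22 fits that left out a mouse Id2 passed in all, Id1 in 7 and Smad1 in 5, and the list's count ranged between 1 and 11. It was 11 without the A/J pair, Smad1 (0.42, FDR 0.00223) and Smad6 (0.63, FDR 0.00046) among them but not Id1 (0.27, FDR 0.0686), and 1 in 12 of the fits. Smad6, the gene most like Dlx6 across libraries, rose in CAST/EiJ (1.62) and NOD/ShiLtJ (1.53) and fell in the A/J pair (-1.96), which is 1 mouse; without NOD/ShiLtJ replicate 4 or 6 no gene of the list passed in NOD/ShiLtJ.

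**Figure D5:**
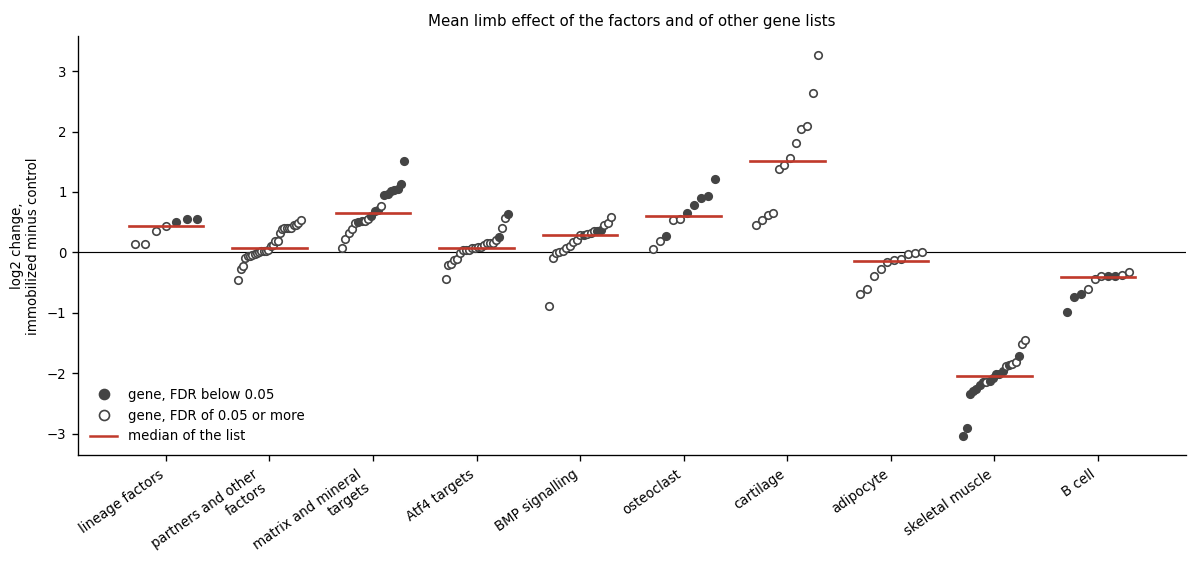
Log2 limb effect averaged over the 8 strains for each gene of the lists, 1 point per gene, filled where it passed an edgeR FDR of 0.05, with the median of each list as a bar. The median of all genes tested was 0.0095. The matrix and mineral targets sit mostly above 0, with 12 of 20 genes passing, while the partners centre near 0 with 0 of 28 passing, and the skeletal muscle genes lie below 0, with 14 of 20 passing. With single mice left out, 9 to 17 targets and 0 to 9 partners rose, and 0 to 3 partners and 4 to 19 muscle genes fell.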

How the data were processed

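RNA was taken from the tibial metaphysis with RNeasy Plus columns and sequenced as TruSeq stranded mRNA libraries, per the labels' protocols. The authors deposited 1 table of raw read counts per gene for 48 libraries; featureCounts, DESeq2 and the mm10 genome, which derives from C57BL/6J, are named in the submitters' processing notes, while for the aligner, the annotation and the strand setting the sources used here give nothing. How well reads of the other 7 strains align to it was not tested, which bears on levels between strains. All 48 columns were matched to samples by name. The table held 32544 gene rows, 7355 of them without a count and 27 with date-like names.

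From these counts, edgeR 4.0.16 (R 4.3.3) fitted quasi-likelihood models with TMM scaling, filterByExpr and robust dispersion, and p-values were adjusted over all genes tested (Benjamini-Hochberg, FDR 0.05). Limb effects used the 44 libraries of 22 mice, each mouse having a term of its own and each strain a limb term; strain differences used the 22 control and the 24 immobilized libraries separately. Levels (CPM) are counts scaled to TMM-adjusted library size, log2 CPM used a prior count of 2, and CPM per kb used exon length of the GRCm38 annotation. Python 3.11.15, pandas 2.3.3 and matplotlib 3.10.9 served for tables and figures.

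The replicate number names the mouse that gave both limbs, so limbs were paired by design. Deviations of paired limbs from their group means correlated weakly (median r 0.089 over 21 mice, -0.26 to 0.55, above 0.1 in 10). Each library is 1 limb, and 44 of the 46 libraries used are the limb pairs of 22 mice. Precision is limited by 3 mice per strain, and by 1 pair for the limb effects of A/J. Depths were 5253408 to 14744056 counts; the lowest count in a library was 0 for Msx2, 16 for Twist1, 21 for Dlx3, 23 for Dlx6, 37 for Dlx5, 200 for Sp7, 358 for Runx2 and 1020 for Atf4. The genes named were the members and Col1a1, for each of the partner, target, Atf4 target and BMP lists the 4 with the lowest p of the mean limb effect, and for each member the 3 genes most like it, of which 1 is not reported here; other genes named were chosen after their values were seen. The members and lists were chosen with earlier results of these data known. The lists of partners, targets, Atf4 targets, BMP signalling and markers of muscle, B cells, erythroid cells, neutrophils, cartilage, osteoclasts, osteocytes and adipocytes come from general knowledge. Alternatives were RLE size factors, no filter, DESeq2 1.42.0, all 48 libraries, muscle and Col1a1 covariates, no term per mouse and leaving out each mouse.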

Additional observations from a re-analysis of the deposited data

Results flagged for a closer look

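The limb effect differed among the 8 strains by an F test of the difference for 4 genes: Dlx5 (FDR 0.0441), Sp7 (FDR 0.0452), Dlx3 (FDR 0.0480) and Col1a1 (FDR 0.0434). In CAST/EiJ and NOD/ShiLtJ these genes were higher in the immobilized limb of all 3 mice, and in the single A/J mouse with both limbs they were lower. The calls were fragile: 0 members passed in 13 of the 22 fits that left out a mouse, among them the fit without the A/J pair. Without a term per mouse, 0 members passed as well.

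Sp7, the zinc-finger factor of osteoblast commitment, was higher in the immobilized limb of all 3 mice in CAST/EiJ, NOD/ShiLtJ and PWK/PhJ and lower in all 3 mice of WSB/EiJ, where the mouse closest to 0 had a log2 change of -0.0226. Atf4 was higher in the immobilized limb of all 3 CAST/EiJ mice and lower in all 3 NZO/HlLtJ mice, the closest to 0 at -0.00613. These contrasts between strains were picked by their direction, and the difference between these strains on their own was not tested; both changes near 0 lie well within the spread between mice.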

How the results depend on the processing

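The alternatives that move the count of genes or members past the threshold are given here. For the mean limb effect, 730 genes and 1 member passed without a filter on low counts, and 7 genes and 0 members with a Col1a1 covariate. For the difference of limb effects among strains, 2157 genes and 6 members passed with DESeq2, 231 genes with a muscle covariate, and 1 member without a filter. At equal Col1a1, 1 gene passed with a muscle covariate. The strain differences in control limbs gave 4163 genes with a muscle covariate, 4 members with DESeq2 and 3 members with all 24 control libraries; those in immobilized limbs gave 1 member with a Col1a1 covariate. The A/J pair gave 1 member with DESeq2. Comparing a strain with the other 7, 1 call was made with a Col1a1 covariate and 2 with all 24 control libraries among control limbs, and 1 call with a Col1a1 covariate among immobilized limbs, against 9 without it. With that covariate the mean limb effects of Dlx3 (-0.13), Atf4 (-0.043), Twist1 (-0.069), Col1a2 (-0.0099) and Pycr1 (-0.24) and the CAST/EiJ difference of Sp7 in immobilized limbs (-0.21) changed sign. The cause was not tested.

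Without the pairing of limbs by mouse (no replicate block), the difference among strains was called for 1 gene and 0 members, and the mean limb effect for 0 members; with all 46 libraries and no block, chosen after seeing the data as were the alternatives at equal Col1a1 and for a strain against the other 7, 174 genes and 0 members passed in those comparisons.

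Leaving out each mouse or library in turn gave 756 to 2803 genes for the mean limb effect, 4 to 1185 among strains, 14 to 66 for the slope on Col1a1, 1 to 10 at equal Col1a1, 5103 to 9107 in control limbs and 6932 to 8548 in immobilized limbs. Members called ranged between 0 and 6 for the mean, 0 and 5 among strains, 0 and 1 for the slope, 0 and 0 at equal Col1a1, 0 and 5 over control limbs, 3 and 6 over immobilized limbs, 0 and 1 in A/J, 4 and 6 in CAST/EiJ and 0 and 6 in NOD/ShiLtJ, and stayed at 0 in the other 5 strains. Calls of a strain against the other 7 ranged between 0 and 6 in control limbs and between 3 and 12 in immobilized limbs. The slope on Col1a1 ranged between -0.0786 and 0.279 for Dlx5 and between -0.136 and 0.273 for Dlx6. Genes called by strain ranged between 679 and 2844 in CAST/EiJ, 0 and 1787 in NOD/ShiLtJ, 386 and 1142 in A/J, 0 and 212 in PWK/PhJ and 0 and 3 in the other 4 strains. Msx2, with 0 to 8 counts per library, is limited by depth.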

Other observations

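Cells other than osteoblasts gave mixed readings in the same limbs. Of 10 genes each, 0 osteocyte genes (median 0.30), 0 adipocyte genes (median -0.15), 0 erythroid genes (median -0.11) and 0 neutrophil genes (median 0.15) passed. At an unadjusted p under 0.05 there were 2 osteocyte, 2 adipocyte, 0 erythroid and 1 neutrophil genes, beside 3912 of all 16882 genes tested. DESeq2 called 1 osteocyte and 1 adipocyte gene. The median of the 20 skeletal muscle genes was -2.05, that of the 10 osteoclast genes 0.61 and that of the 10 B cell genes -0.42.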
